A study of Mus musculus with 11 samples.

Results

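Integrins are surface receptors built from an alpha and a beta chain, and 10 chain genes were followed here in sorted early thymocytes: Itgae, Itgb7, Itga4, Itgb1, Itgal, Itgb2, Itga6, Itgb4, Itgav and Itgb3. They were taken by name from the 26 integrin chains of the mouse. 2 of them were chosen by their values in these libraries, Itgae for its lower CPM in DN3 KO than in DN3 WT and Itgb4 for its higher CPM at DN3 than at DN2, so those differences are described without a test. All 10 were among the 13780 genes that passed a filter on low counts, of 35975 genes with a transcript in the files. Itgae passed through its DN3 libraries, since it was under 1 CPM (counts scaled to the library total) in every DN2 library.

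Each integrin works as a fixed pair, and the pairing of the chains sets which ligand a cell can hold. Itgae encodes alphaE (CD103), which pairs with beta7 and holds E-cadherin on epithelium. Itga4 encodes alpha4, which pairs with beta1 to hold VCAM-1 and fibronectin, or with beta7 to hold MAdCAM-1. Itgal (alphaL) and Itgb2 (beta2) form LFA-1, the receptor for the ICAMs on leukocytes. Itga6 (alpha6) forms laminin receptors with beta1 or with beta4, and Itgav (alphaV) pairs with beta1 or beta3 to hold vitronectin, fibronectin and osteopontin. Progenitors that enter the thymus use alpha4 integrins and LFA-1, and double-negative (DN) cells then move outward through the cortex along stroma that carries these ligands.

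The 11 RNA-seq libraries came from DN2 and DN3 thymocytes of C57BL/6J mice, sorted by CD44 and CD25 from thymus depleted of CD4+ and CD8+ cells. There were 3 wild-type (WT) DN2, 2 Arpp21 knockout (KO) DN2, 3 WT DN3 and 3 KO DN3 libraries. The KO line, Arpp21-/-, was made by a CRISPR deletion of exon 5 of Arpp21, which encodes an RNA-binding protein of thymocytes. The deletion shifts the reading frame of the long isoform and leaves the short isoform, and all KO libraries came from that line. No other agent or allele was given for any group, and the age and sex of each animal were not given. The study asked which mRNAs depend on Arpp21 at these stages. Arpp21 mRNA stood at 183, 125 and 136 CPM in DN2 WT, and 86.9 and 28.5 CPM in DN2 KO. The WT libraries of DN3 had 386, 336 and 312 CPM and the KO libraries 335, 221 and 142 CPM. A deletion of that kind need not remove the mRNA, so these values did not check the labels.

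Libraries held 14531762 to 63109504 estimated counts, with a median of 21501831. 2 of them stood apart, DN2 KO replicate 2 and DN3 KO replicate 3. Against the other libraries of their stage, genes with transcripts of 4000 bases or more had a median log2 deviation of -2.004 and -1.02 there, and genes under 1500 bases one of 1.67 and 0.84. In the other 9 libraries the long genes lay between -0.15 and 0.14. The integrin chains are long, with a median transcript length of 4468 bases against 2614 for all genes tested, and their median log2 deviation in these libraries was -0.93 and -1.23. Talin-1 (Tln1), the long adaptor that switches integrins on, showed the same, with 21.8 and 25.2 CPM there and 382 to 567 CPM in the other 9. Sorted populations may differ in cell content as well as in RNA per cell, and bulk libraries cannot tell these apart.

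Of the 10 chains, Itga4 had the highest TPM in DN2 WT cells, at 120 ± 27.4 (SD, n = 3). TPM divides by transcript length and by the library total, and was summed over all transcripts of a gene, coding or not. Itgb1 at 82.5 ± 6.23, Itgb7 at 80.9 ± 23.9 and Itgal at 80.9 ± 20.7 TPM followed, and the libraries of these last 3 genes overlapped. Itgb2 stood at 22.4 ± 2.75, Itga6 at 14.4 ± 2.44, Itgb3 at 9.51 ± 1.85 and Itgav at 5.66 ± 3.74 TPM. Itgb4 at 1.06 ± 0.18 and Itgae at 0.14 ± 0.05 TPM closed the order, and Itga6 overlapped Itgb3 and Itgb3 overlapped Itgav. In DN3 WT the order was Itgb1 (99.6 ± 16.2 TPM), Itgal (81.6 ± 14.7), Itga4 (53.2 ± 13.7), Itgb4 (31.2 ± 4.67), Itgb2 (23.2 ± 2.35), Itga6 (13.9 ± 1.90), Itgae (7.27 ± 1.05), Itgb7 (5.58 ± 1.67), Itgb3 (4.30 ± 0.30) and Itgav (4.16 ± 2.44). Neighbours overlapped between Itgb1 and Itgal, between Itgal and Itga4, and from Itgae down to Itgav. In the KO groups only Itgav over Itgb4 in DN2, and Itga6 over Itgb7 in DN3, were neighbours that did not overlap. Coding transcripts held unlike parts of these sums. In DN2 WT, Itga4-201, the coding transcript, held 48.5%, 42.6% and 48.7% of Itga4 TPM. The coding Itgb1-201 held 96.6%, 88.8% and 91.0% of Itgb1 TPM there. The order is thus one of gene totals and not of coding mRNA.

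**Figure D1:**
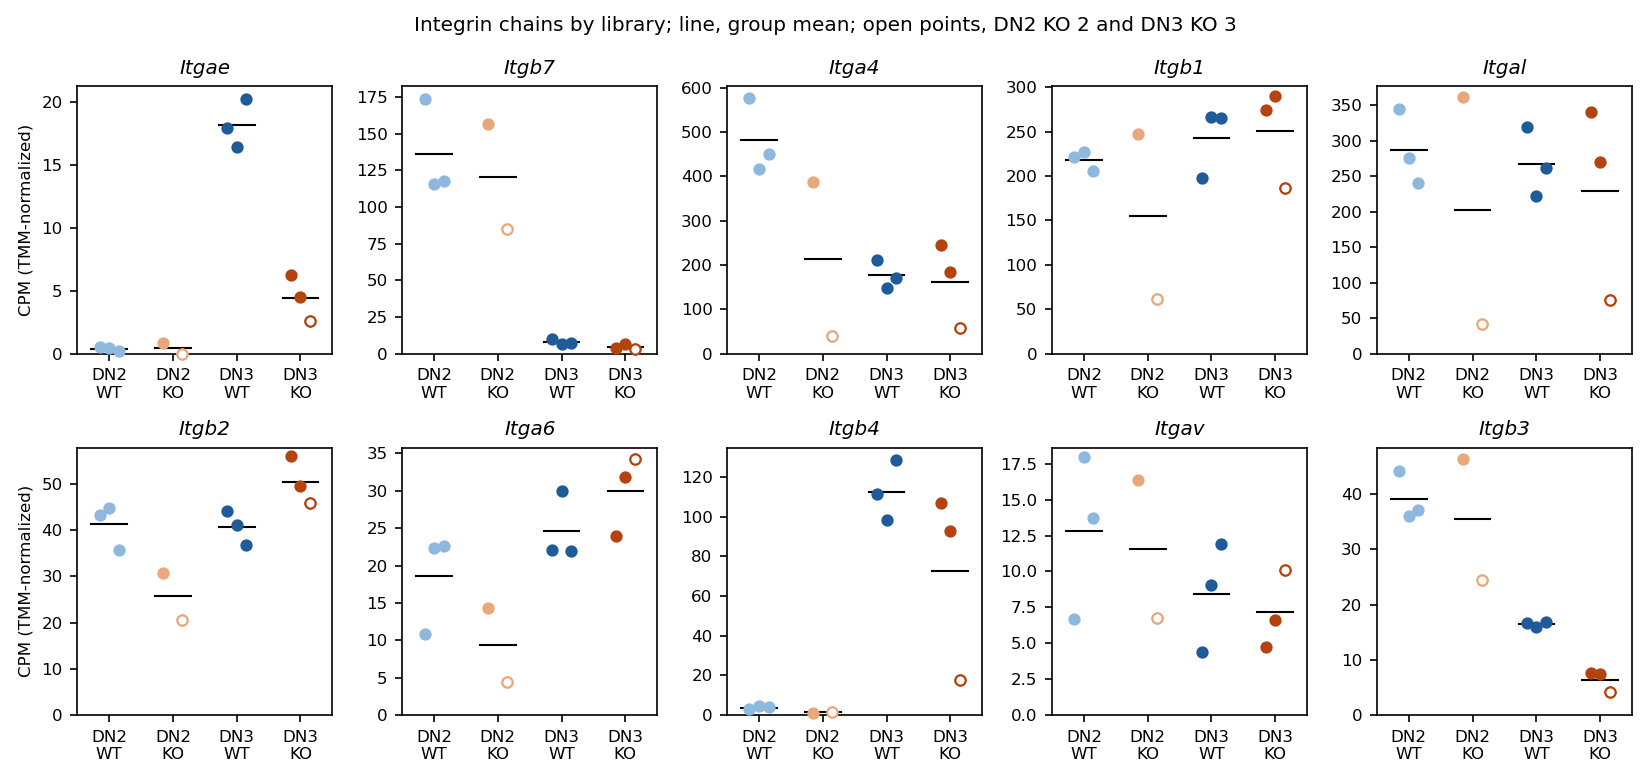
TMM-normalized CPM of each integrin chain in each library, on a linear axis from 0, with 1 point per library and a line at the group mean; open points are DN2 KO replicate 2 and DN3 KO replicate 3. Itgae and Itgb4 are near 0 in DN2, Itgb7 is near the floor of its axis in DN3, and the open points lie below the other KO library or libraries of their group for Itga4, Itgb1 and Itgal.

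The beta7 chain was lower and the beta4 chain higher in DN3 WT than in DN2 WT, and Itgb4 was chosen by that difference. Itgb7 fell 16.7-fold, from a mean of 136 to 8.11 CPM, while Itgb4 stood at 3.76 CPM in DN2 and 112 CPM in DN3. Among the 8 chains taken by name alone, 1 was called in WT, Itgb7, and 2 in KO, Itgb7 and Itgb3, all lower in DN3. Of all genes tested, 4.08% were called in WT and 4.32% in KO. The share of all genes that did not overlap between stages was not counted, so statements of overlap between stages describe single genes only. The median log2 fold change of the 10 chains was -0.06 in WT and 0.44 in KO, beside 0.01 and 0.03 for all genes, and Itgae and Itgb4, chosen by value, are among the 10. Without DN2 KO replicate 2 and DN3 KO replicate 3 the KO median was -0.03, with 5 of the 10 below 0.

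Itgb7 encodes the only beta chain that alphaE can use, and the partner of alpha4 for gut addressin. Its level was 174, 116 and 117 CPM in the DN2 WT libraries and 156 and 85.1 CPM in DN2 KO. At DN3 the WT libraries had 10.2, 6.73 and 7.43 CPM and the KO libraries 3.95, 6.75 and 2.99 CPM. The stages did not overlap in either genotype, and the lowest DN2 library held more than the highest DN3 library several times over. The log2 fold change from DN2 to DN3 was -4.06 ± 0.42 (SE) in WT (edgeR quasi-likelihood test, adjusted p = 0.000687) and -4.72 ± 0.45 in KO (adjusted p = 0.000459). Nearly all of its counts lay on the full-length coding transcript Itgb7-201 (88.1% to 100% in every library).

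Itgb3 encodes beta3, the partner of alphaV and, in platelets, of alphaIIb. It stood at 44.2, 36.03 and 37.1 CPM in DN2 WT and at 46.3 and 24.5 CPM in DN2 KO. At DN3 the WT libraries had 16.6, 15.9 and 16.9 CPM and the KO libraries 7.52, 7.41 and 4.20 CPM. The stages were apart in both genotypes, and within DN3 the genotypes were apart as well. From DN2 to DN3 its log2 fold change was -2.47 ± 0.36 in KO (edgeR, adjusted p = 0.00442) and -1.25 ± 0.33 in WT (adjusted p = 0.0671). The WT value passed the threshold in 9 of 25 alternatives (adjusted p from 0.000192 to 0.564), among them the fit without DN2 KO replicate 2 and DN3 KO replicate 3 (adjusted p = 0.00073). The KO value passed in 20 of 25, and failed with limma on TPM, with voom weights, in a fit of the KO libraries alone and with the replicate number as a block within genotype (adjusted p = 0.0743).

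Itga2b encodes alphaIIb, the chain that beta3 pairs with on platelets and early progenitors, and was the only chain that edgeR called among the other 16 integrin genes; DESeq2 also called Itgax, Itga9 and Itgb6 in WT and Itgax and Itga7 in KO. It stood at 19.4, 25.7 and 24.6 CPM in DN2 WT and at 34.1 and 6.90 CPM in DN2 KO. In DN3 no library reached the level of 3 counts, with 0 to 0.04 CPM in WT and 0 to 0.16 CPM in KO. Against a floor of 3 counts per library, DN2 was at least 175-fold higher in WT and at least 115-fold higher in KO (edgeR, adjusted p = 0.00102 and 0.00183). The platelet genes Pf4, Ppbp, Gp1bb and Gp5 were each under 1 CPM in every library. Gp9, the fifth of the megakaryocyte and platelet markers, stood at 0.57, 0 and 0.88 CPM in DN2 WT and 0.20 and 1.497 CPM in DN2 KO, and at 0 to 0.04 CPM in DN3. The 5 markers summed to 0 to 0.88 CPM in DN2 WT, 0.24 to 1.98 CPM in DN2 KO and 0 to 0.73 CPM in DN3.

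Itga4 stood at 577.5, 418 and 450 CPM in DN2 WT and at 212, 149 and 170 CPM in DN3 WT. These groups did not overlap, and the log2 fold change of -1.45 ± 0.71 missed the threshold (edgeR, adjusted p = 0.433). The range over 25 alternatives was 0.000741 to 0.803, and the lowest of these came from the fit without DN2 KO replicate 2 and DN3 KO replicate 3. In KO its level was 388 and 40.1 CPM in DN2 and 245, 183 and 58.6 CPM in DN3, and the stages overlapped. Within a library, Itgb7 was 0.71, 0.61 and 0.69 times Itga4 by TPM in DN2 WT and 0.09, 0.09 and 0.14 times in DN3 WT. The ratio, of TPM over coding and non-coding transcripts, thus differed between stages without regard to library size.

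Promoter sequence for the pair that forms alpha4beta7 is shown because both chains had lower means at DN3 in WT; RefSeq (GRCm38.p6) gave sequences for 4 of the 10 chains, Itgb7, Itga4, Itgb1 and Itgav. Each run is the 250 bases before the start site, 5′ to 3′ on the gene's strand. Capitals mark matches, on either strand, to the RUNX motif TGTGGT or to the E-box, the core bound by E proteins, and no match overlapped another. The E-box was searched as CANNTG.
Itgb7, chr15:102231936-102232185, minus strand: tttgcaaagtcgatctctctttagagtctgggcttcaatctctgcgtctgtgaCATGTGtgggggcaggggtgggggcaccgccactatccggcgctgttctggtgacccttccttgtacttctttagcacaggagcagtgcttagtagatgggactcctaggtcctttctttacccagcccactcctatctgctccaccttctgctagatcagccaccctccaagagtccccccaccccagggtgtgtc
Itga4, chr2:79255176-79255425, plus strand: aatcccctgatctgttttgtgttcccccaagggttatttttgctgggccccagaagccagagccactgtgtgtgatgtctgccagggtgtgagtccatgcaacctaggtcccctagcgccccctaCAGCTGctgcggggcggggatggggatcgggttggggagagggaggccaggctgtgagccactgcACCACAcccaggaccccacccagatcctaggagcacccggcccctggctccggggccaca
The Itgb7 run held 1 E-box, 197 bases before the start site. The Itga4 run held 1 E-box at 125 bases and 1 RUNX motif, read on the opposite strand, at 60 bases. The windows of Itgb1 and Itgav, not printed, held neither motif, and Itgav also had a lower mean at DN3 in WT. Of 32851 promoter windows of this length, 66.22% held an E-box and 14.05% the RUNX motif. A match is a description of the letters only.

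Itgb4 encodes beta4, whose only partner is alpha6 and which links epithelial cells to laminin. It stood at 2.96, 4.45 and 3.87 CPM in DN2 WT and at 111, 98.0 and 128 CPM in DN3 WT. In KO it stood at 1.22 and 1.44 CPM in DN2 and at 107, 92.5 and 17.7 CPM in DN3. The stages were far apart in both genotypes, and DN3 KO replicate 3 was the lowest DN3 library. The log2 difference between stages, by which the gene was chosen, was 4.90 ± 0.61 (SE) in WT and 5.76 ± 0.77 in KO. Its counts lay mostly on transcripts that start at the third exon of the full-length form, at chr11 position 115977786. These took 75.9% to 78.8% of the gene's counts in the WT libraries and 59.7% to 85.9% in the KO libraries at DN3. Transcripts that start between positions 115974709 and 115974979 took 21.1% to 24.1% and 14.1% to 39.5%, and 3 short transcripts with later starts at most 0.82%.

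Itga6 encodes alpha6, the chain that beta4 must pair with. Its level was 10.8, 22.3 and 22.7 CPM in DN2 WT and 22.1, 29.9 and 21.9 CPM in DN3 WT, and the groups overlapped. In KO it was 14.4 and 4.38 CPM in DN2 and 23.9, 31.8 and 34.3 CPM in DN3, and the groups did not overlap. By TPM the KO groups overlapped, at 14.75 and 4.43 in DN2 and 14.97, 15.63 and 9.985 in DN3. The log2 fold change was 0.41 ± 0.45 in WT (edgeR, adjusted p = 0.914; -0.17 with a transcript length offset and -0.04 with limma on log2(TPM + 1)) and 1.68 ± 0.53 in KO (adjusted p = 0.118, 0.0037 to 0.809 over 25 alternatives). By TPM, Itgb4 was 0.08, 0.07 and 0.08 times Itga6 in DN2 WT and 2.24, 1.69 and 2.99 times in DN3 WT. In KO the ratio was 0.02 and 0.03 in DN2 and 1.97, 1.62 and 0.33 in DN3. Itgb4 TPM thus passed Itga6 TPM in all DN3 libraries but DN3 KO replicate 3. Itga6 TPM includes non-coding transcripts. The 443-base processed transcript Itga6-205 held 44.26% to 63.28% of it in DN2 WT and 14.17% to 27.65% in DN3 WT. In DN2 KO it held 65.2% and 92.23%. The ratios are therefore not those to coding alpha6 mRNA.

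The cytoplasmic tail of alpha6 comes in the forms A and B, set by an alternative exon near the end of the gene, and this exon is shown because it tells which form the libraries held. It lies at chr2:71853534-71853663 on the plus strand (GRCm38, GENCODE M21), is present in Itga6-201 and absent from Itga6-202, and its 105 coding bases read in capitals as follows.
Itga6-201, chr2:71853534-71853638: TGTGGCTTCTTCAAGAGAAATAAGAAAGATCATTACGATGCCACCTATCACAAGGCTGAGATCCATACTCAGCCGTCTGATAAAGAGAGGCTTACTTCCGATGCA
Itga6-201 took 55.5% to 59.2% of the gene's counts in WT and 59.1% to 73.4% in KO at DN3. At DN2 it took 45.3% to 59.0% in WT, and 54.0% and 9.65% in the KO libraries, the lower share in replicate 2, where the gene had 164 counts. Itga6-202 was at 0 in 8 of 11 libraries and held 5.67%, 6.61% and 7.48% of the counts in the other 3, all of them WT. The form with the A exon was therefore the larger of these 2 transcripts in every library of both stages.

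**Figure D2:**
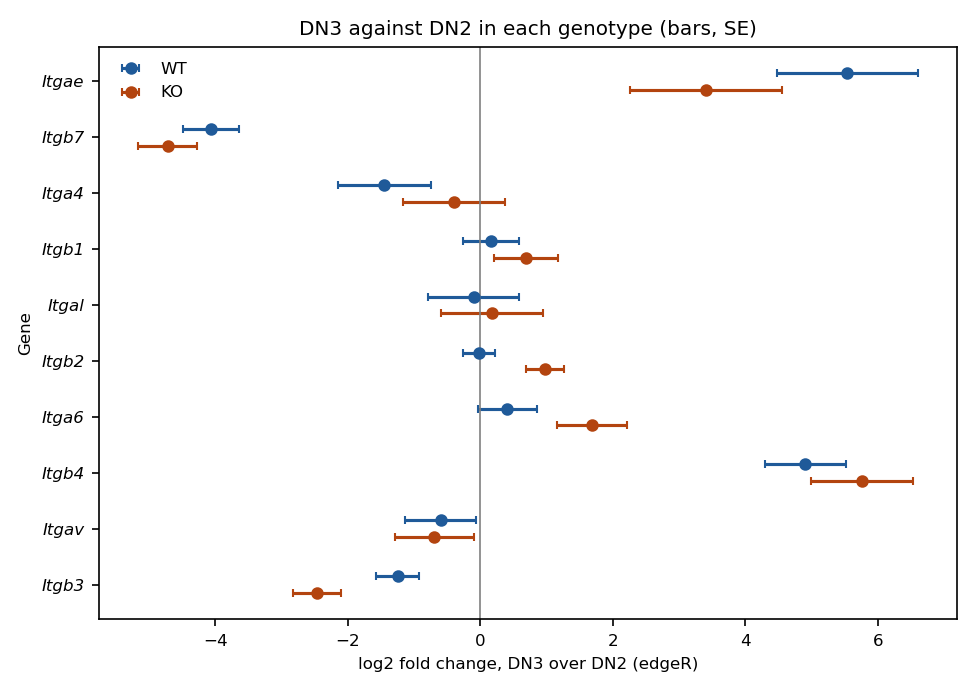
log2 fold change of DN3 over DN2 for each integrin chain in WT (blue) and KO (orange), from the edgeR fit, with bars of 1 SE. Itgae and Itgb4 lie to the right of 0 and Itgb7 and Itgb3 to the left in both genotypes, and Itgb1, Itgal and Itgb2 lie within 1 SE of 0 in WT.

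Chains with broader roles overlapped between the WT stages. Itgb1, the beta chain shared by most matrix receptors, was at 221, 228 and 206 CPM in DN2 WT and 198, 267 and 265 CPM in DN3 WT. Its log2 fold change was 0.16 ± 0.42, and 2 SE to either side reach from -0.69 to 1.01. Itgal was at 344, 276 and 241 CPM in DN2 WT and 319, 222 and 261 CPM in DN3 WT, a log2 fold change of -0.10 ± 0.68. Both groups of each gene overlapped, and the intervals still hold changes of more than 2-fold, for Itgb1 only at the upper end. Itgb2 stood at 43.4, 44.8 and 35.7 CPM in DN2 WT and 44.3, 41.1 and 36.8 CPM in DN3 WT, with a narrower log2 fold change of -0.02 ± 0.25. With limma on log2(TPM + 1) the values of Itgal and Itgb2 were 0.03 and 0.05, of opposite sign. Itgav ranged from 6.71 to 18.0 CPM in DN2 WT and from 4.38 to 11.9 CPM in DN3 WT, and the groups overlapped. In KO, Itgb2 was at 30.9 and 20.5 CPM in DN2 and 56.2, 49.7 and 45.8 CPM in DN3. The log2 fold change of 0.98 ± 0.28 missed the threshold (edgeR, adjusted p = 0.0923, 0.00195 to 0.608 over 25 alternatives). These groups were apart by CPM and overlapped by TPM, with 17.35 in DN2 KO replicate 1 and 15.31 in DN3 KO replicate 3.

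Read per length and within each library, shares moved more among the 5 listed beta chains than among the 5 listed alpha chains. Itgb4 and Itgae, chosen by value, are among these, and the other 16 integrin chains are not counted. Of the summed TPM of the 5 beta chains, Itgb7 held 40.7% ± 5.03 (SD, n = 3) in DN2 WT and 3.40% ± 0.93 in DN3 WT. Itgb4 held 0.56% ± 0.16 and 19.1% ± 2.15, and Itgb1 42.5% ± 4.31 and 60.6% ± 5.23. Among the 5 alpha chains Itga4 held 54.0% ± 2.76 in DN2 WT and 32.9% ± 3.30 in DN3 WT, and Itgal 36.4% ± 2.49 and 50.9% ± 1.76. Itgae went from 0.06% ± 0.02 to 4.58% ± 0.73. These shares carry no test, and sum to 100% by construction, so that a fall of 1 chain raises the others. They count non-coding transcripts as well, and so are not shares of coding mRNA.

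**Figure D3:**
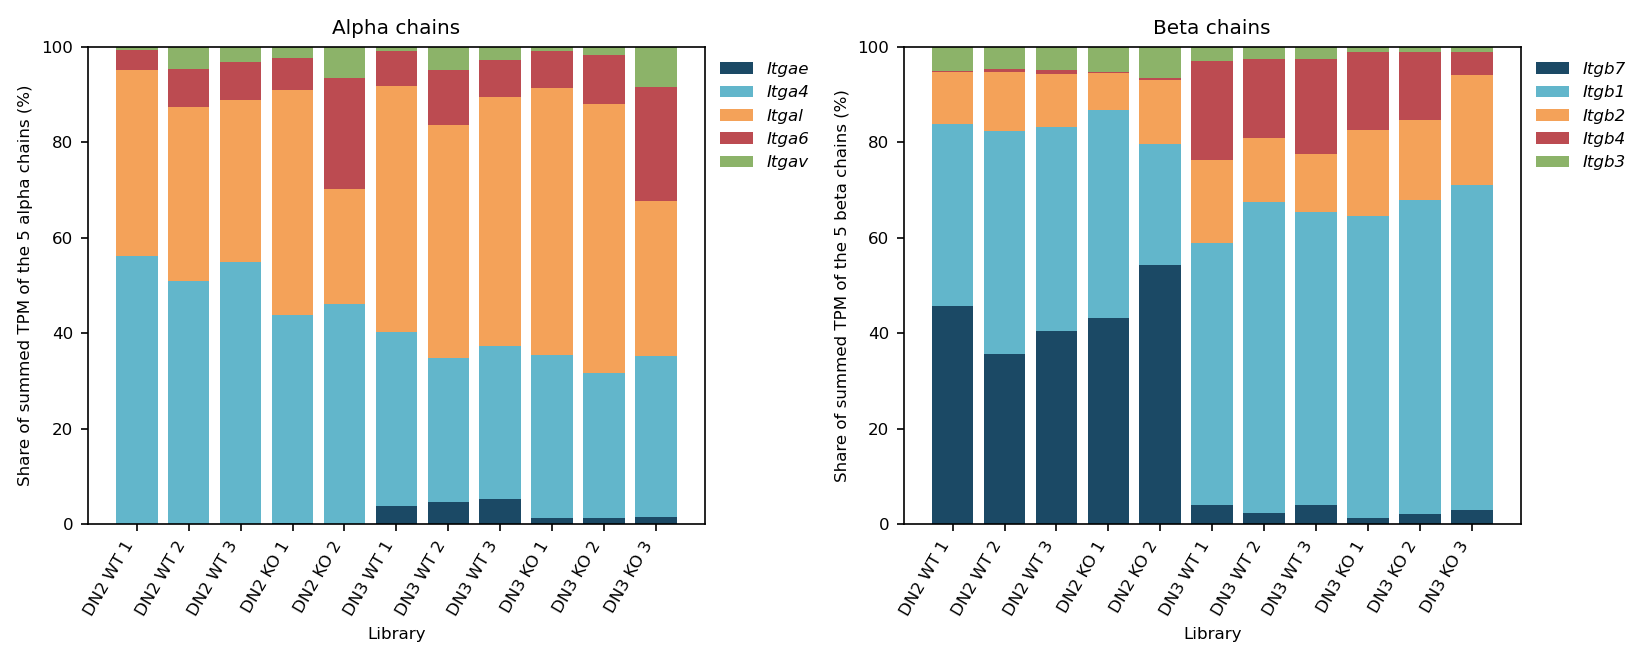
Share of the summed TPM taken by each of the 5 alpha chains (left) and 5 beta chains (right), per library, as stacked bars in percent. TPM counts all transcripts of a gene, coding or not. Itgb7 takes 35.7% to 54.4% of the beta chains in DN2 and 1.30% to 3.98% in DN3, and Itga6 and Itgav take more of the alpha chains in DN2 KO replicate 2 and DN3 KO replicate 3 than in the other libraries.

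Itgae, the alphaE chain, stood at 17.9, 16.4 and 20.3 CPM in the DN3 WT libraries, and the DN3 KO libraries had 6.23, 4.52 and 2.58 CPM. The groups did not overlap. The mean was 4.10-fold higher in WT, and the log2 difference of KO from WT, by which the gene was chosen, was -2.03 ± 0.89 (SE) over the 11 libraries. Without DN2 KO replicate 2 and DN3 KO replicate 3 it was -1.76 ± 0.34. Both values, and the DN3 shares and transcript levels given next, come from the counts that chose the gene. They describe the difference and are no separate evidence for it. As a share of alpha-chain TPM, a measure within each library, Itgae held 3.83%, 4.63% and 5.29% in the WT and 1.29%, 1.17% and 1.48% in the KO libraries of DN3. In DN2 it was at 0.48, 0.45 and 0.23 CPM in WT and at 0.86 and 0 CPM in KO, where 0 of 62418949 counts allows up to 0.08 CPM. The log2 difference of DN3 from DN2 was 5.54 ± 1.07 in WT and 3.40 ± 1.15 in KO, with no test because the DN3 values chose the gene. In DN3 WT the mRNA of its partner Itgb7 was lower than Itgae in TPM, with a ratio of Itgae to Itgb7 of 1.21, 1.67 and 1.19, and in DN3 KO the ratio was 1.08, 0.46 and 0.31.

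The annotation splits Itgae into a coding transcript, Itgae-201, and Itgae-202, which keeps an intron and ends early. The 30 bases across the end of their shared exon (chr11:73133991-73134098, plus strand, GRCm38, GENCODE M21) are shown because this junction tells them apart. Lower case is the shared exon's end, and capitals are the next exon (from position 73138455) in Itgae-201 and the kept intron (from position 73134099) in Itgae-202.
Itgae-201: ctgacaaagactcagGACCACACTGAGTGC
Itgae-202: ctgacaaagactcagGTATTTAAATGGGAG
The coding transcript took 14.3, 14.8 and 19.4 CPM in the DN3 WT libraries, 4.19, 4.25 and 2.06 CPM in the DN3 KO libraries, and these groups did not overlap. Itgae-202 took 3.60, 1.59 and 0.88 CPM there in WT, and 2.04, 0.27 and 0.52 CPM in KO, which overlapped. In DN2 WT all of the 11, 10 and 6 counts fell on Itgae-202 and none on the coding transcript, and in DN2 KO replicate 1 the coding transcript had 1.40 of 22 counts. Haspin, a kinase gene on the opposite strand inside Itgae (chr11:73135485-73138294), lies between the end of Itgae-202 and the next exon of Itgae-201 and shares no exon bases with either. Its range at DN3 was 22.7 to 26.5 CPM in WT and 12.4 to 24.6 CPM in KO.

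**Figure D4:**
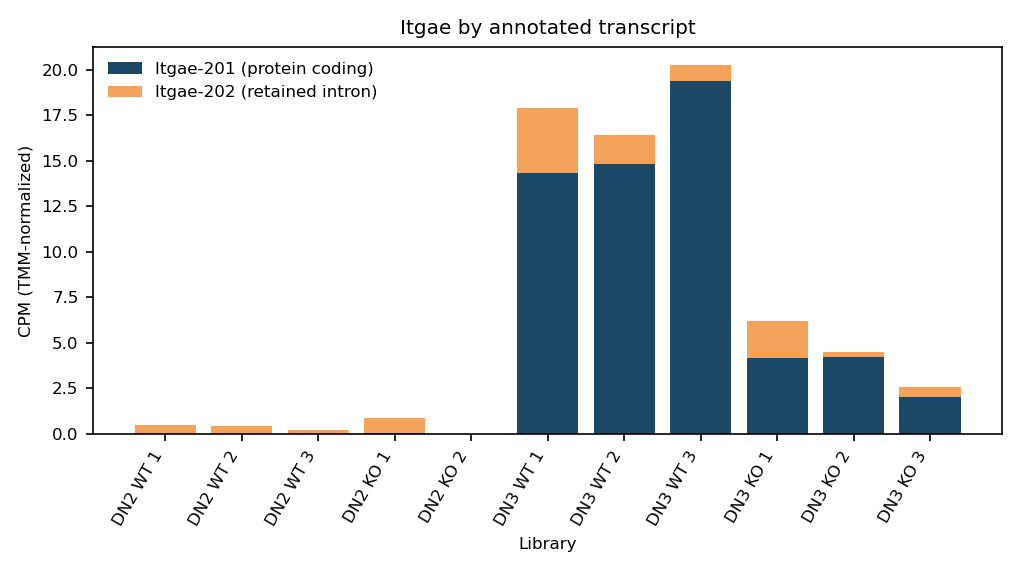
Itgae CPM in each library, split into the coding transcript Itgae-201 and the retained-intron transcript Itgae-202 as stacked bars from 0. The coding transcript lies at 14.3 to 19.4 CPM for WT and 2.06 to 4.25 CPM for KO in DN3, and is all but absent from DN2.

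Of the 8 chains taken by name, none was called between DN3 KO and DN3 WT (edgeR; 1 had an unadjusted p under 0.05, and DESeq2 called 1), where 0.00726% of all genes were called, a single gene. The gene in both counts was Itgb3, whose 3 KO libraries (4.20 to 7.52 CPM) lay below the 3 WT libraries (15.9 to 16.9 CPM). Its log2 fold change was -1.36 ± 0.33 (edgeR, adjusted p = 1). DESeq2 gave an adjusted p of 0.0296 and voom with sample weights one of 0.0113, and the range over 24 alternatives was 0.0113 to 1. Without DN2 KO replicate 2 and DN3 KO replicate 3 it was -1.14 ± 0.17 (adjusted p = 0.104). As a share of beta-chain TPM, Itgb3 held 2.92%, 2.47% and 2.52% in the WT and 1.11%, 1.06% and 0.99% in the KO libraries.

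Of all 10 chains, 3 did not overlap by CPM between the DN3 genotypes. These were Itgae and Itgb3, lower in KO, and Itgb2, higher in KO. Itgae is there by the values that chose it, and 10.5% of all genes did not overlap. By TPM the Itgb2 groups overlapped, with DN3 KO at 32.5, 30.1 and 15.3 and DN3 WT at 21.6 to 25.9. Itgb2 had 44.3, 41.1 and 36.8 CPM in the WT libraries and 56.2, 49.7 and 45.8 CPM in the KO libraries, a log2 fold change of 0.31 ± 0.25 (edgeR, adjusted p = 1). Itgb7 had a log2 fold change of -0.83 ± 0.38 (adjusted p = 1) and overlapped by DN3 KO replicate 2. Itgb4 had one of -0.64 ± 0.52, which was -0.18 ± 0.19 without the libraries that stood apart. The other 5 chains lay between -0.24 and 0.28 on the log2 scale, with SEs of 0.42 to 0.69, and each of them changed sign under some alternative. The median over the 10, Itgae included, was -0.23, beside -0.0048 for all genes, and -0.0023 without the libraries that stood apart, with 5 of the 10 below 0. The summed level of 7 DN3 marker genes was 4326 to 4895 CPM in WT and 2745 to 4522 CPM in KO at this stage, and that of 6 gamma delta T cell genes was 2063 to 2315 and 1367 to 1866 CPM. The part of either in the levels of Itgae and Itgb3 was not tested.

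In DN2 none of the 8 chains was called between genotypes (edgeR; 1 at an unadjusted p under 0.05, 0 by DESeq2), and 0.0% of all genes were (2020 genes at an unadjusted p under 0.05, and 38 called by DESeq2). KO had lower means for 9 of the 10 chains, with a median log2 fold change of -0.50 beside -0.06 for all genes. This tally turned without the libraries that stood apart, where 4 of the 10 were below 0 and the median was 0.21; DN2 KO then rests on 1 library. Itga4, Itgb2 and Itgb4 did not overlap between genotypes, where 15.8% of all genes did not. Itgb4 was at 2.96 to 4.45 CPM in WT and 1.22 and 1.44 CPM in KO, a log2 fold change of -1.49 ± 0.63 (edgeR, adjusted p = 0.337), and -1.60 ± 0.32 without the libraries that stood apart (adjusted p = 0.651). Itga4 changed from -1.17 ± 0.80 to -0.29 ± 0.25 in that fit, and Itga6 from -0.99 ± 0.52 to -0.36 ± 0.43. Of the counts of Itga4, 77.5% lay on 4 short non-coding transcripts in DN2 KO replicate 2 and 41.4% in DN3 KO replicate 3, against 16.9% to 27.7% in the other 9 libraries.

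The genotype effect was not shown to differ between stages for any of the 8 chains taken by name. None of the 8 was called for the interaction (edgeR; 2 at an unadjusted p under 0.05, 0 by DESeq2), and 0.0% of all genes were (373 at an unadjusted p under 0.05, and 10 called by DESeq2). The 2 chains were Itgb2, with a difference of 1.00 ± 0.37 on the log2 scale, and Itgb3, with -1.22 ± 0.48 (edgeR, adjusted p = 0.964 for both). For Itgae the difference was -2.14 ± 1.39, and it contains the DN3 difference that chose the gene. Its DN2 values lay near 0, on at most 22 counts, and it turned to 4.15 without DN2 KO replicate 1. It therefore cannot tell whether the genotype effect on Itgae differed between stages.

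**Figure D5:**
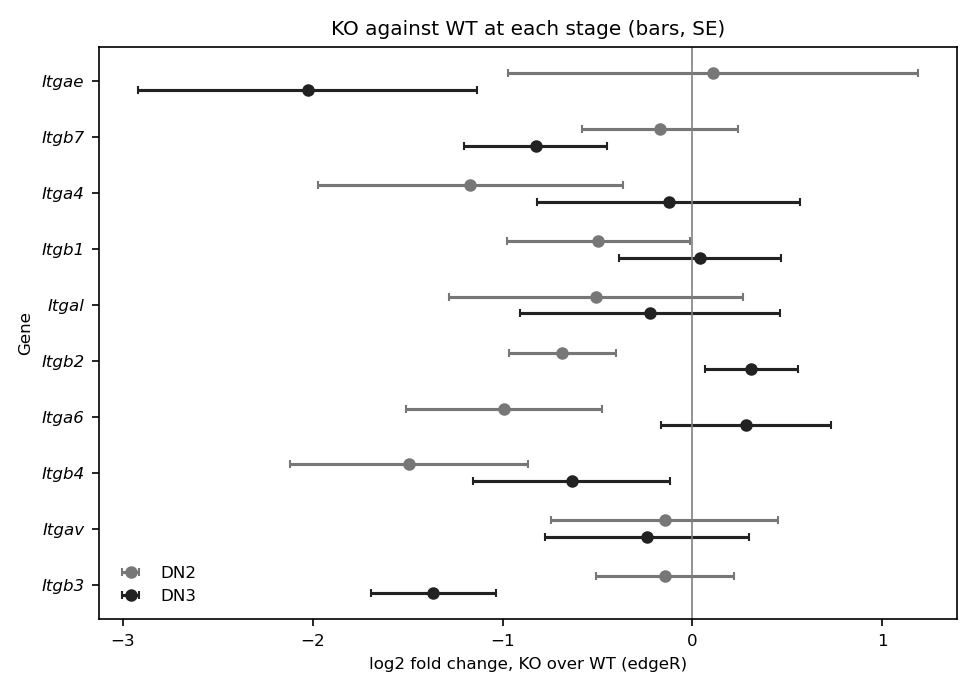
log2 fold change of KO over WT for each integrin chain at DN2 (grey) and DN3 (black), from the edgeR fit, with bars of 1 SE. In DN3, Itgae and Itgb3 lie furthest to the left of 0, and in DN2 all chains but Itgae have point estimates below 0, against 4 of the 10 without the libraries that stood apart.

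Most of the other 16 integrin chains had little mRNA. Of the 16, 9 passed the filter on low counts and 10 stayed under a mean of 1 CPM in every group. Itga2b, Itga5 and Itgax reached 10 CPM in some group. Itga5, the alpha chain of the fibronectin receptor, ranged from 23.7 to 42.0 CPM in 9 libraries, and stood at 2.17 CPM in DN2 KO replicate 2 and 19.0 CPM in DN3 KO replicate 3. Itgax (CD11c) stood at 24.8, 18.4 and 14.95 CPM in DN2 WT and at 0.13 to 0.96 CPM in DN3 WT (edgeR, adjusted p = 0.0675). The summed level of 6 myeloid markers moved with it, at 111 to 152 CPM in DN2 WT and 29.7 to 36.2 CPM in DN3 WT, while S100a8 and S100a9 were under 1 CPM in every library. Of 5 dendritic cell markers, Xcr1, Clec9a and Siglech were under 1 CPM throughout and the sum was 2.02 to 9.19 CPM.

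Of 28 adaptors that activate integrins or link them to actin, 24 were tested and edgeR called 1 in each genotype between stages, Rasgrp2, a share near that of all genes (4.08% in WT and 4.32% in KO). DESeq2 called Rasgrp2 in both and Parvg, which encodes gamma-parvin, between the KO stages. Rasgrp2 encodes CalDAG-GEFI, the exchange factor that loads Rap1 ahead of talin binding. It stood at 64.5, 68.1 and 58.6 CPM in DN2 WT and at 18.0, 18.6 and 21.4 CPM in DN3 WT, a log2 fold change of -1.72 ± 0.32 (edgeR, adjusted p = 0.0147). With the replicate number as a block within genotype its adjusted p was 0.0567, and it missed the threshold without any 1 DN3 WT library or without DN2 WT replicate 2. In KO it stood at 70.7 and 164 CPM in DN2 and at 19.1, 22.7 and 27.2 CPM in DN3, a log2 fold change of -2.35 ± 0.35 (adjusted p = 0.00453, and 0.0626 with that block). The median log2 fold change of the adaptors was 0.01 in WT and 0.19 in KO. None was called between genotypes (edgeR; 0 in DN3 and 2 in DN2 at an unadjusted p under 0.05, 0 by DESeq2 at either stage).

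Of 13 ligand and counter-receptor genes, 10 were tested, and none was called in any comparison (edgeR; 0 to 3 per comparison at an unadjusted p under 0.05, and DESeq2 called 1, Icam2, between the KO stages). Of the list, 4 reached a mean of 10 CPM. Cdh1, the E-cadherin gene, stood at 60.8, 67.7 and 41.9 CPM in DN2 WT, and 29.96 and 2.89 CPM in DN2 KO. The DN3 WT libraries had 146, 116 and 123 CPM and the DN3 KO libraries 97.7, 85.3 and 24.9 CPM. It was thus detected in the same sorted libraries as Itgae, the chain that holds it, with a log2 fold change from DN2 to DN3 of 1.17 ± 0.71 in WT (edgeR, adjusted p = 0.603, 0.00256 to 0.911 over 25 alternatives). Icam1 ranged from 18.7 to 56.2 CPM, Icam2 from 43.8 to 211 CPM, with the highest value in DN2 KO replicate 2, and Cd47 from 400 to 651 CPM. The epithelial genes Krt5, Krt8, Foxn1 and Psmb11 and the stromal gene Col1a1 were each under 1 CPM in every library. Epcam, an epithelial marker of the same list, moved with Cdh1 and Itgae between stages, at 2.53, 3.73 and 9.77 CPM in DN2 WT and 23.5, 70.9 and 95.9 CPM in DN3 WT. It was at 5.35 and 7.72 CPM in DN2 KO, and at 34.7, 54.4 and 107 CPM in KO at DN3. The 7 epithelial and stromal markers of that list summed to 89.52 to 151.7 CPM in DN2 WT and 100.7 to 181.2 CPM in DN3 WT. These sums overlapped, so the list as a whole did not separate the WT stages as Epcam did. Pecam1, the most abundant of the list, ranged from 10.45 to 148.9 CPM over all libraries. The part of Epcam in the levels of Cdh1 and Itgae was not tested.

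Over the 11 libraries, and among 9123 genes with a mean of at least 10 CPM in some group, the profiles most like that of Itgb4 were Adamtsl2 and Slc37a1 (Pearson r = 0.98 each on log2(CPM + 1)), Egr1 (0.98), Adamts17 (0.98) and Rps6kl1 (0.98). For Itgae they were Tmem151b (0.96), Tcrg-V1 (0.96), Hdac4 (0.95), Adamtsl2 (0.95) and Fam234b (0.95). Tcrg-V1, a variable segment of the gamma chain, had means of 21.7 CPM in the WT and 10.4 CPM in the KO libraries of DN3, and Hdac4 of 646 and 226 CPM. The libraries fall into 2 stages and share library preparation, so that any gene low in DN2 and high in DN3 scores high, and the r values are a description.

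The labelled stages were checked against their markers. The 6 DN2 markers summed to 1209 to 1362 CPM in DN2 WT and 1127 to 1314 CPM in DN3 WT. These overlapped, so that this sum did not separate the stages. In DN2 KO replicate 2 it was 251 CPM. The 7 DN3 markers summed to 1276 to 1989 CPM in DN2 WT and 4326 to 4895 CPM in DN3 WT. In KO they summed to 262 to 1397 CPM in DN2 and 2745 to 4522 CPM in DN3. The 6 markers of cells past beta selection summed to 196 to 302 CPM in DN2 WT, 379 to 398 CPM in DN3 WT and 137 to 447 CPM over all libraries. B cell genes Cd79a, Ms4a1 and Pax5 were under 1 CPM throughout, the sum of 5 B cell markers (38.6 to 71.9 CPM) being nearly all Cd79b. The 7 epithelial and stromal markers summed to 18.6 to 181 CPM, carried by Epcam and Pecam1.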

How the data were processed

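RNA from sorted DN2 and DN3 thymocytes was made into SMART-Seq v4 and Nextera libraries and read as 150-base pairs, per the labels. The authors trimmed the reads and ran kallisto 0.46 against Ensembl transcripts of GRCm38. The deposited files hold estimated counts and TPM values per transcript. Transcripts were summed to genes with GENCODE M21 (97.8% of transcripts matched, and 0.93% to 1.07% of counts unmatched). Estimated counts were rounded and fitted with edgeR 4.0.16 (quasi-likelihood, TMM, filterByExpr with a minimum count of 10, 4 groups of all 11 libraries, R 4.3.3). A gene was called at a Benjamini-Hochberg adjusted p under 0.05, and SE was taken from the F statistic. CPM compares a gene between libraries, and TPM, summed over coding and non-coding transcripts, compares genes. Alternatives used DESeq2 1.42.0 and limma 3.58.1. The fits were tested on simulated data.

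The members and gene lists were chosen with earlier results of these data known. Genes named are the 10 chains, other integrin chains and ligands with a mean of at least 10 CPM, called genes of the lists, genes overlapping a member, Arpp21, and the 5 profiles nearest to Itgae and Itgb4; marker genes named singly, Tln1 and the genes that DESeq2 alone called were named after their values were seen. Nothing says that same-numbered libraries share an animal or a day. Deviations of same-numbered DN2 WT and DN3 WT libraries correlated at 0.17 to 0.53, which meets the criterion for pairing (over 0.1 in every pair); the fit reported has no block, and the fit with the replicate number as a block within genotype is given where it changed a call. Deviations of same-numbered DN2 KO and DN2 WT libraries correlated at 0.22 to 0.23, which meets the criterion too. With the replicate number as a block, no chain was called between the DN2 genotypes (edgeR, adjusted p = 0.329 for Itgb4). The remaining pairs ran from -0.67 to 0.69 and did not meet the criterion. Nothing says that replicates came from separate animals, so p-values measure the spread between these libraries. Library sizes were 14531762 to 63109504 estimated counts, and floors of 3 counts (0.08 to 0.24 CPM) cover counting error only.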

Additional observations from a re-analysis of the deposited data

Results flagged for a closer look

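Itgb2, which encodes the beta chain of LFA-1, had KO values on opposite sides of WT at the 2 stages by CPM, but not by TPM. In TPM, DN3 KO replicate 3, a library that stood apart, had 15.3, below the DN3 WT libraries (21.6 to 25.9). The other DN3 KO libraries had 32.5 and 30.1 TPM. Both DN2 KO libraries (30.9 and 20.5 CPM) lay below the 3 DN2 WT libraries (35.7 to 44.8 CPM), and the 3 DN3 KO libraries (45.8 to 56.2 CPM) lay above the 3 DN3 WT libraries (36.8 to 44.3 CPM). Groups did not overlap for 15.8% of all genes in DN2 and 10.5% in DN3. Neither genotype effect passed the threshold (edgeR, -0.68 ± 0.28 in DN2, adjusted p = 0.336, and 0.31 ± 0.25 in DN3, adjusted p = 1). The difference of the genotype effects was 1.00 ± 0.37 on the log2 scale and did not pass the threshold (edgeR, adjusted p = 0.964, 0.025 to 1 over 24 alternatives). The lowest of these came without DN2 KO replicate 1, which leaves DN2 KO with replicate 2, a library that stood apart.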

How the results depend on the processing

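Counts are given as integrin chains called, of the 8 taken by name, then as all genes called. For DN3 KO against DN3 WT (0 and 1 in the fit reported), DESeq2 gave 1 and 16, voom with sample weights 1 and 118, limma on log2(TPM + 0.1) 0 and 2, the fit without DN2 KO replicate 2 and DN3 KO replicate 3 gave 0 and 5, and the replicate block, the libraries with file suffix 0 and the compared groups alone each 0 and 0. With file suffix 0 each KO group is 1 library, as is DN2 KO without DN2 KO replicate 2, and the other groups give the spread. Leaving out 1 library gave 0 chains and 0 to 1 genes. For DN2 KO against DN2 WT (0 and 0), DESeq2 called 38 genes, and leaving out 1 library gave 0 to 5 chains and 0 to 6817 genes. For the interaction (0 and 0), DESeq2 called 10 genes, and leaving out 1 library gave 0 to 5 chains and 0 to 3819 genes. The upper ends came without DN2 KO replicate 1, where DN2 KO is the library poor in long transcripts and is assumed to vary like the other groups.

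For DN3 WT against DN2 WT (1 and 562), DESeq2 gave 2 and 1192, the length trend offset 3 chains, voom 3 and 2326, the fit without DN2 KO replicate 2 and DN3 KO replicate 3 gave 3 and 2287, libraries with file suffix 0 gave 3 and 1691, the compared groups alone 3 and 1946, an adjusted p under 0.1 gave 2 chains, and leaving out 1 library 1 to 2 chains and 244 to 1103 genes (fewest without a DN3 WT library or DN2 WT replicate 2 or 3, most without a DN2 KO library). The replicate block within genotype gave 1 and 216, and the plain replicate block 1 and 441. For DN3 KO against DN2 KO (2 and 595), DESeq2 gave 4 and 1600, the length trend offset 917 genes, voom 1 and 140, limma on TPM 1 chain with either pseudocount (1 or 0.1), the replicate block within genotype 1 and 120, the fit without both libraries 904 genes, the compared groups alone 0 and 0, an adjusted p under 0.1 gave 993 genes, and leaving out 1 library 2 to 7 chains and 281 to 6799 genes (fewest without DN3 KO replicate 1 or 2, most without DN2 KO replicate 1). Higher against lower calls there were 191 and 404 in the fit reported, 6 and 134 with voom, 260 and 239 or 275 and 236 with limma on TPM (pseudocount 1 or 0.1), and 228 and 288 with file suffix 0. Besides Itgb3 in KO and Rasgrp2 in WT, given above, the block within genotype ended the call of Rasgrp2 in KO (adjusted p = 0.0626) and no other call among the genes tested by name. Counts limit Itgae in DN2, and no value there rests on more than 22 counts. The causes of these differences were not tested.

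Of 56 single-gene log2 fold changes, 23 changed sign under some alternative, and none of these was called in the fit reported. Between stages in WT, Itga6 was -0.17 with transcript length offsets and -0.043 or -0.046 with limma on TPM (pseudocount 1 or 0.1), Itgal 0.0265 and 0.0269 with limma on TPM, and Itgb2 0.049 and 0.051 with limma on TPM and 0.0051 with the compared groups alone. Leaving out 1 library gave -0.25 to 0.0489 for Itgal and -0.11 to 0.0485 for Itgb2. Between stages in KO, Itga4 was 0.79 with voom, 0.24 and 0.27 with limma on TPM, 0.11 with the replicate block and 0.76 with the block within genotype, Itgav 0.017 with limma on log2(TPM + 0.1), and Itgal -0.19 with the length trend offset, -0.25 without both libraries and -0.11 with file suffix 0. Leaving out 1 library gave -1.27 to 2.02 for Itga4, -0.67 to 2.44 for Itgal and -1.20 to 0.084 for Itgav.

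Between genotypes in DN3, Itga4 was 0.052 with the length trend offset, 0.19 with voom, 0.27 without both libraries and 0.46 with file suffix 0, and Itgal 0.12 with voom, 0.19 without both libraries and 0.34 with file suffix 0. Itga6 was -0.0499 and -0.0546 with limma on TPM and -0.0513 with file suffix 0, Itgb1 -0.22 with limma on TPM (either), and Itgav 0.34 with the length trend offset. Leaving out 1 library gave -0.55 to 0.28 for Itga4, -0.63 to 0.19 for Itgal, -0.57 to 0.092 for Itgav and -0.087 to 0.21 for Itgb1. In DN2, without both libraries and with file suffix 0, Itgal was 0.35 and 0.22, Itgav 0.37 and 0.41, Itgb1 0.20 and 0.15, Itgb3 0.26 and 0.21, and Itgb7 0.22 and 0.11. The length trend offset gave 0.73 for Itgav and 0.84 for Itgb3, and the replicate block 0.23 for Itgav and -0.44 for Itgae. Itgae was -2.31 with voom and -0.21 with limma on log2(TPM + 0.1). Leaving out 1 library gave -6.17 to 1.17 for Itgae, -2.76 to 0.34 for Itgal, -0.92 to 0.37 for Itgav, -1.82 to 0.20 for Itgb1, -0.68 to 0.26 for Itgb3 and -0.67 to 0.22 for Itgb7.

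For the interaction, Itgae was 0.43 with voom, Itgal -0.16 without both libraries, Itgav 0.22 with transcript length offsets and 0.26 and 0.36 with limma on TPM, Itgb4 -0.28 with the length trend offset, and Itgb4 and Itgb7 -0.33 and 0.078 with limma on log2(TPM + 1). Leaving out 1 library gave -3.19 to 4.15 for Itgae, -0.56 to 2.54 for Itgal, -0.60 to 0.68 for Itgav and -0.15 to 1.87 for Itgb1. Of the reversed values 2 passed the threshold, both without DN2 KO replicate 1, Itgae in DN2 and Itga4 between the KO stages. Itgax and Cdh1 were added to the genes recomputed after seeing the data.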
